A study of Mus musculus with 4 samples.

Results

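7 mature miRNAs known from surface and olfactory epithelium were followed through small RNA libraries of the embryonic mouse forebrain, as a reading of how much non-neural epithelium each piece of tissue may have held. They were mmu-miR-200a-5p, mmu-miR-200b-5p, mmu-miR-200c-5p, mmu-miR-141-5p and mmu-miR-429-5p of the miR-200 family, mmu-miR-203-5p, and mmu-miR-205-5p. The members were taken by name from the 1059 mature miRNAs of the deposited tables, and each had a single row. No threshold on their counts was used, but they were chosen with earlier results of these data known. All tissue came from the rostral-most telencephalic primordium at E11.5. There were 2 libraries of Rx-Dicer mutants (RxCre-DicerF/F), which carry Cre under the regulatory sequences of Rx and 2 floxed alleles of Dicer, and 2 libraries of control littermates, labelled WT and described in the protocols as DicerF/F. Dicer is deleted only where Rx-Cre has acted, and the study describes this recombination as strongest in the rostral and ventral telencephalon, so the mutant tissue can hold cells with a working Dicer. Rx-Cre mice were kept on a CD1 background and the floxed mice on C57BL/6, and how many embryos went into a library is not given in the sources used here.

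The miR-200 family maintains epithelial identity, mainly by repressing Zeb1 and Zeb2, transcription factors that silence E-cadherin, and it is needed for olfactory progenitors to mature. miR-203 promotes the exit of skin cells from the stem cell state by repressing p63, and miR-205 is abundant in skin and other stratified epithelia. Each hairpin can yield a miRNA from either arm. In the miR-200 family and miR-203 the 3p arm is regarded as the main product and the 5p arm as the passenger strand, whereas the 5p arm is the main product of miR-205. The rows analysed here hold the 5p arm of each of the 7 hairpins and the 3p arm of 0 of them, so for 6 of the 7 hairpins only the passenger strand was analysed here.

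The mature sequences are shown because the members divide by genomic cluster and by seed, and the 3p arms of miR-200a and miR-200b are given beside the 5p arms to show which sequence was not analysed. Capitals mark the seed (bases 2 to 8), and the sequences are those of RefSeq on GRCm38.p6, which is mm10, with all 7 members matched by name.
miR-205-5p: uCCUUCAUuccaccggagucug
miR-200a-5p: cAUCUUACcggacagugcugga
miR-200b-5p: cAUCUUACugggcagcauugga
miR-429-5p: gUCUUACCagacaugguuaga
miR-200c-5p: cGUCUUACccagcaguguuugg
miR-141-5p: cAUCUUCCagugcaguguugga
miR-203-5p: aGUGGUUCuugacaguucaaca
miR-200a-3p: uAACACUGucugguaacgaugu
miR-200b-3p: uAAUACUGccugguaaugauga
Among the members, miR-200a-5p and miR-200b-5p alone shared a seed, AUCUUAC, and over their 22 bases they differ at 5 positions. The 3p arms group otherwise, with AAUACUG in miR-200b, miR-200c and miR-429 and AACACUG in miR-200a and miR-141.

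The hairpins lie at 4 places in the genome. Mir200b (chr4:156055681-156055750), Mir200a (chr4:156054896-156054985) and Mir429 (chr4:156053905-156053987) follow each other on the minus strand, 695 and 908 bases apart, within an intron of Ttll10. In the non-coding transcript Gm13648 of the same strand, Mir200b and Mir200a are intronic and Mir429 is exonic. Mir200c (chr6:124718322-124718390) and Mir141 (chr6:124717914-124717985) are 336 bases apart on the minus strand, within an intron of Gm15884, annotated as an antisense transcript, and Mir141 also overlaps an exon of Gm29008. Mir205 (chr1:193507463-193507530, minus strand) lies in an exon of the lincRNA 4631405K08Rik, and Mir203 (chr12:112130880-112130955, plus strand) overlaps no other GENCODE gene.

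Counts summed over mature miRNAs were 516517 to 1299067 per library, with both mutant libraries below both control libraries. Levels are given as scaled CPM, the CPM of a library after edgeR's TMM scaling of its total. The neural miRNA miR-9-5p took 28.2 to 42.6% of the counts of a library, whereas the 7 epithelial miRNAs together took 0.0275% and 0.0918% in Rx-Dicer libraries 1 and 2 and 0.0186% and 0.0348% in control libraries 1 and 2. The 2 Rx-Dicer libraries stood apart from each other in miR-200a-5p and miR-200b-5p, and fold changes of these miRNAs are therefore also given without each of them. A level is a proportion of its own library, and in such bulk tissue fewer cells of a type and less RNA per cell cannot be told apart.

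3 members carried nearly all of the reads, and 3 had none. In each library miR-205-5p was the most abundant member, followed by miR-200a-5p and then miR-200b-5p. Reads of miR-205-5p numbered 167 in Rx-Dicer library 1, 280 in Rx-Dicer library 2, 171 in control library 1 and 226 in control library 2, which placed it between rank 94 and rank 140 of the miRNAs of a library. Those of miR-200a-5p numbered 8 and 112 for the mutants, against 43 and 86 for the controls, with ranks from 132 to 273. Those of miR-200b-5p numbered 4 and 82 for the mutants, against 27 and 82 for the controls, with ranks from 143 to 312. All 3 are 22 bases long. However, miR-205-5p is regarded as the main product of its hairpin, and miR-200a-5p and miR-200b-5p as passenger strands. Their order therefore does not rank the output of the hairpins. The levels of miR-200a-5p (10.5 to 191 scaled CPM) and miR-200b-5p (5.26 to 139.8) overlapped over nearly their whole range across libraries, and the range of miR-205-5p (142 to 477) overlapped the upper end of that of miR-200a-5p. Within each library, however, the order of the 3 was the same.

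**Figure D1:**
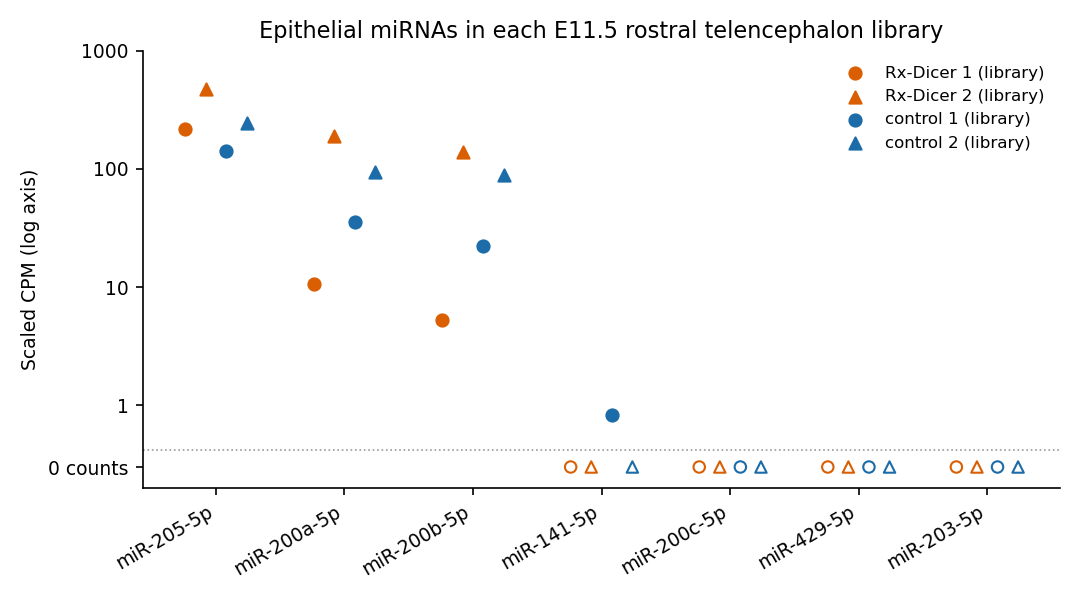
Scaled CPM (log axis) of the 7 members in each of the 4 libraries, with circles for library 1 and triangles for library 2 of a genotype; open symbols under the dotted line stand for 0 counts. miR-205-5p lay between 142 and 477 in all libraries, and miR-200a-5p and miR-200b-5p were lowest in Rx-Dicer library 1 and highest in Rx-Dicer library 2.

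The members without reads came from both miR-200 clusters and from Mir203. miR-429-5p, from the hairpin next to Mir200a, miR-200c-5p and miR-203-5p had 0 counts in each of the 4 libraries, which at 3 counts allows a share of up to 0.000461% and 0.000581% in mutants, against 0.000231% and 0.000265% in controls. miR-141-5p had 1 count, in control library 1, and 0 in the others. On the scaled CPM scale these limits were 2.49 to 5.12. In Rx-Dicer library 1 the limit was 3.94, against 5.26 for miR-200b-5p, which rested on 4 counts there. These zeros concern the 5p arms alone. The label of surface and olfactory epithelium thus rested here on miR-205-5p, miR-200a-5p and miR-200b-5p, while miR-203-5p and both 5p arms of the chromosome 6 cluster were at or next to 0.

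To ask whether loss of Dicer from the Rx lineage was accompanied by a change in these miRNAs, the mutants were compared with controls across the 274 miRNAs that reached 10 counts in 2 or more libraries. 3 members reached this minimum. Of all tested miRNAs, 2.55% were lower and 0% were higher in mutants when the Benjamini-Hochberg adjusted p of edgeR had to be under 0.05. Of the 3 members, 0 were lower and 0 were higher in edgeR. At an unadjusted p under 0.05, 0 of the 3 passed, against 23 lower and 3 higher among the 274. In DESeq2's Wald test, which gave miR-200b-5p no adjusted p, 0 members passed, against 11 lower and 0 higher among the 274. With only 3 members, counts of 0 lie near these shares and say little about the members. In scaled CPM, the libraries of the genotypes separated in none of the 3. By the same measure, 24.5% of tested miRNAs were lower and 17.9% higher in both mutant libraries than in both control libraries. The median log2 fold change of the 3 members was 0.63, against 0.04 over all tested miRNAs.

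miR-205-5p had the smallest spread between libraries relative to its level and the largest fold change of the 3. Its scaled CPM was 219.5 and 477 in Rx-Dicer libraries 1 and 2 and 142 and 245 in control libraries 1 and 2. Rx-Dicer library 2 was the highest and control library 1 the lowest, and Rx-Dicer library 1 fell between the control libraries, so that the groups overlapped. The mutant mean was 348 ± 182 and the control mean 194 ± 72.8 (SD, n = 2 libraries per genotype). The log2 fold change was 0.85, with a standard error of 0.43 and a 95% interval of −0.17 to 1.86, and edgeR gave an unadjusted p of 0.0901 and an adjusted p of 0.526. The log2 fold change stayed positive with each library left out in turn, between 0.19 without Rx-Dicer library 2 and 1.31 without Rx-Dicer library 1.

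For miR-200a-5p the scaled CPM was 10.5 and 191 in Rx-Dicer libraries 1 and 2 and 35.7 and 93.2 in control libraries 1 and 2. Both control libraries lay between the mutant libraries. The mutant mean was 101 ± 128 and the control mean 64.5 ± 40.7 (SD, n = 2 libraries per genotype), and the log2 fold change was 0.63 with a standard error of 1.02 (95% interval −1.75 to 3.01, adjusted p = 0.859 in edgeR). miR-200b-5p, from the hairpin next to it, had 5.26 and 139.8 in mutants, against 22.4 and 88.9 in controls, the same order of libraries as miR-200a-5p. Its mutant mean was 72.5 ± 95.2 and its control mean 55.7 ± 47.0 (SD, n = 2 libraries per genotype), and the log2 fold change was 0.37 with a standard error of 1.12 (95% interval −2.26 to 2.99, adjusted p = 0.963 in edgeR). Both intervals reach from a much lower to a much higher level in mutants, so a difference in either direction was not detectable with these libraries.

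The direction of both miR-200 fold changes depended on which mutant library was used. Without Rx-Dicer library 2, the log2 fold change was −2.59 for miR-200a-5p and −3.35 for miR-200b-5p. These values rested on 8 and 4 counts in Rx-Dicer library 1. Without Rx-Dicer library 1, the log2 fold change was 1.58 for miR-200a-5p and 1.35 for miR-200b-5p. In these fits a lone mutant library is assumed to vary as the control libraries do, and a lone library cannot stand for its genotype. Among controls, leaving out library 1 gave 0.13 and −0.28 and leaving out library 2 gave 1.47 and 1.66 for miR-200a-5p and miR-200b-5p.

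**Figure D2:**
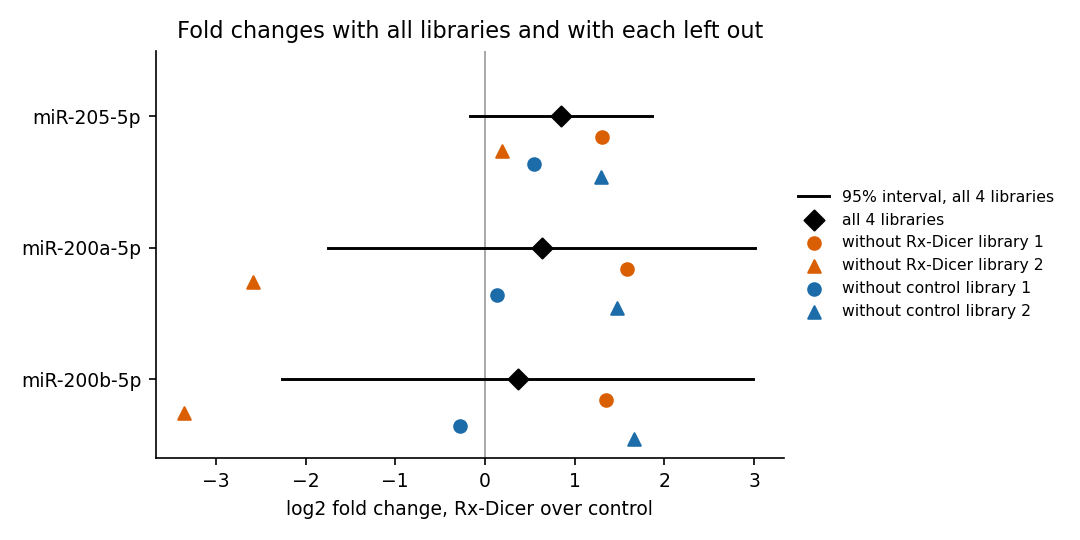
log2 fold change of Rx-Dicer over control for the 3 members that were tested, with diamonds and lines for all 4 libraries and their 95% intervals and coloured symbols for fits without 1 library. miR-205-5p stayed above 0 throughout (0.19 to 1.31), whereas miR-200a-5p and miR-200b-5p moved to −2.59 and −3.35 without Rx-Dicer library 2.

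By point estimate, the difference between the Rx-Dicer libraries was larger for miR-200b-5p and miR-200a-5p than for any other of the 274 tested miRNAs. In scaled CPM, Rx-Dicer library 2 had 26.6 times as much miR-200b-5p as Rx-Dicer library 1 (95% exact interval of the ratio 10 to 99.9). It had 18.2 times as much miR-200a-5p (8.91 to 43.1), and both intervals cover counting error only. In Rx-Dicer library 1 these ratios rested on 4 counts of miR-200b-5p and 8 of miR-200a-5p. Both intervals include the ratios of miR-183-5p (11.1) and miR-182-5p (10.3), so the order of these miRNAs is not settled. By the ratio of scaled CPM, 7 of the 274 miRNAs differed by at least 4-fold between these libraries, and the median size of the difference over all 274 was 0.29 on the scale of log2 (scaled CPM + 1), on which miRNAs are also ranked here. miR-205-5p was 2.18 times as high in Rx-Dicer library 2 (1.79 to 2.65), the 21st largest difference. These ratios compare 2 libraries and not conditions.

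The control libraries differed in the same order by number, with smaller ratios. Control library 2 had 3.96 times as much miR-200b-5p as control library 1 (95% exact interval 2.54 to 6.37) and 2.61 times as much miR-200a-5p (1.79 to 3.86), the second and the seventh largest differences there. For miR-205-5p the ratio was 1.72 (1.41 to 2.12). Library numbers are labels only, and the labels do not tie a mutant library to the control library of the same number.

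Within a library, the cluster neighbours kept similar proportions, while the proportion of miR-205-5p to them varied between libraries. miR-205-5p was also higher in library 2 than in library 1 of each genotype, but by smaller ratios than miR-200a-5p and miR-200b-5p. miR-200b-5p made up 33.3% of the reads of miR-200a-5p and miR-200b-5p in Rx-Dicer library 1 (95% exact interval 9.92 to 65.1), 42.3% in Rx-Dicer library 2 (35.2 to 49.6), 38.6% in control library 1 (27.2 to 51.0) and 48.8% in control library 2 (41.0 to 56.6). These intervals overlap one another, and that of Rx-Dicer library 2 alone lies wholly below equal amounts of both miRNAs. miR-205-5p made up 93.3% of the reads of all members in Rx-Dicer library 1 (88.6 to 96.5) but 59.1% in Rx-Dicer library 2 (54.5 to 63.5), and 70.7% (64.5 to 76.3) and 57.4% (52.3 to 62.3) in control libraries 1 and 2. In scaled CPM, Rx-Dicer library 1 was thus low in both miR-200 members, while its miR-205-5p level lay within the range of the control libraries.

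**Figure D3:**
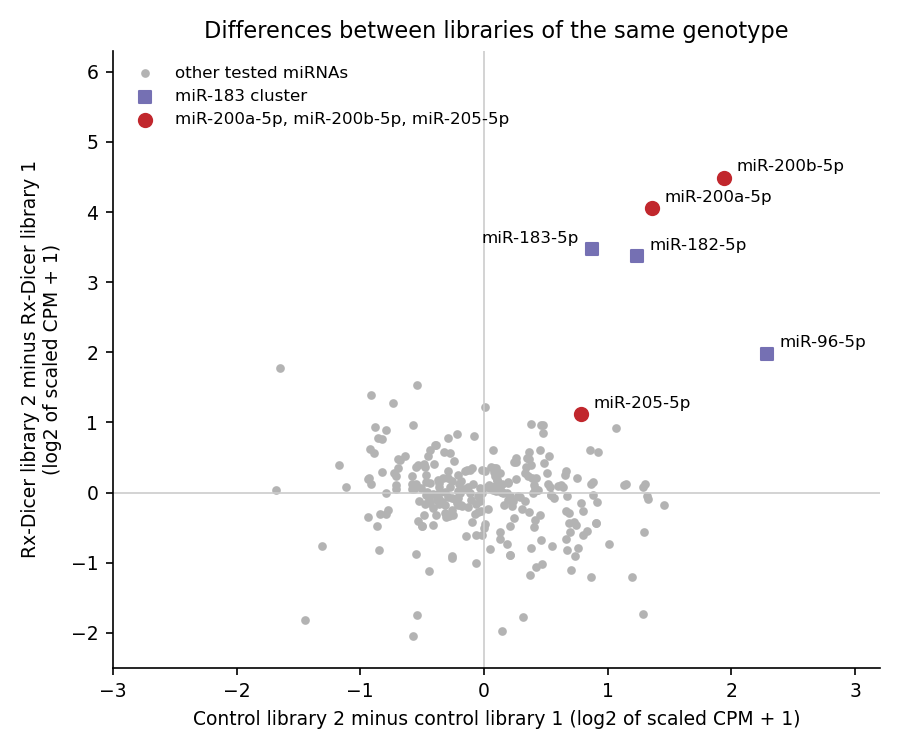
Difference between library 2 and library 1 of the same genotype, in log2 of scaled CPM + 1, for controls (x axis) and Rx-Dicer mutants (y axis), with 1 point for each of the 274 tested miRNAs. miR-200a-5p and miR-200b-5p are the highest points on the y axis (4.06 and 4.49), followed by miR-183-5p and miR-182-5p (3.47 and 3.37).

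The miRNAs with the pattern most like that of miR-200a-5p and miR-200b-5p over the 4 libraries were miR-183-5p and miR-182-5p of the miR-183 cluster. This cluster gives rise to miR-183, miR-96 and miR-182, which are typical of sensory cells of the ear, the eye and the olfactory epithelium. Likeness was taken as the root mean square difference of centred log2 values (scaled CPM + 1) over the 4 libraries, and the comparison with the sum of miR-200a-5p and miR-200b-5p was chosen after the data were seen. The smallest differences were 0.40 for miR-183-5p, 0.45 for miR-182-5p and 0.89 for miR-96-5p, against a median of 1.67 over the miRNAs compared. miR-183-5p had 553 and 6152 scaled CPM in Rx-Dicer libraries 1 and 2 and 1788 and 3270 in control libraries 1 and 2. For miR-182-5p the values were 762 and 7873 in mutants, against 1515 and 3576 in controls. Both were lowest in Rx-Dicer library 1 and highest in Rx-Dicer library 2, as were miR-200a-5p and miR-200b-5p, and Rx-Dicer library 2 exceeded Rx-Dicer library 1 by 11.1 and 10.3 times. miR-96-5p, the third of the cluster, had 9.20 and 39.2 in mutants, against 8.31 and 44.5 in controls. It was lowest in control library 1 and highest in control library 2, but it had only 7 to 41 counts in a library. So few counts do not settle whether its order differs from that of miR-183-5p and miR-182-5p. Between genotypes the log2 fold changes were 0.41 for miR-183-5p (adjusted p = 0.922 in edgeR) and 0.76 for miR-182-5p (adjusted p = 0.815 in edgeR). Likeness to the sum of all 7 members, in which miR-205-5p predominates, was greatest for miR-3062-5p (0.40), miR-292a-5p (0.42), miR-410-5p (0.43), miR-6538 (0.44) and miR-144-5p (0.46), against a median of 0.85 over 271 miRNAs. These 5 had between 9 and 78 counts in a library, and miR-3062-5p, the closest, had 19.7 and 39.2 scaled CPM in mutants, against 19.9 and 28.2 in controls.

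In the marker lists for other tissues that a dissected piece could hold, 0 miRNAs passed the adjusted threshold in either direction in edgeR. Over all 274 tested miRNAs, 2.55% were lower and 0% were higher. With 10 or fewer miRNAs tested in each list, counts of 0 lie near these shares and say little about the tissues. The list of other epithelia held 14 miRNAs, of which 10 were tested, and its sum was 3319 and 15575 scaled CPM in Rx-Dicer libraries 1 and 2 and 4990 and 8476 in control libraries 1 and 2. The miR-183 cluster made up 1325 and 14064 of this sum in mutants and 3311 and 6890 in controls. The other 11 miRNAs of the list, a split chosen after the data were seen, summed to 1994 and 1511 in mutants and 1679 and 1586 in controls, so that without the cluster Rx-Dicer library 2 was the lowest rather than the highest. miR-182-5p and miR-183-5p were the most abundant of the whole list on average, followed by miR-34c-5p, a miRNA of multiciliated cells, with 584 and 610.4 in mutants and 428 and 443 in controls. miR-449a-5p, also typical of multiciliated cells and named after its values were seen, ran the other way from the miR-200 members, with 488 and 118 in mutants, against 323 and 217 in controls.

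The 5 mesenchymal miRNAs, led by miR-199a-5p, summed to 11917 and 11348 scaled CPM in Rx-Dicer libraries 1 and 2, which were close to each other, and to 4443 and 11072 in control libraries 1 and 2. Control library 1 was thus low in mesenchymal miRNAs, and it was also the library with the lowest miR-205-5p. The 3 red-cell miRNAs summed to 7595 and 8504 in mutants and 5737 and 6362 in controls, and miR-126a-5p of endothelium to 431 and 244 in mutants and 253 and 403 in controls. The 4 white blood cell miRNAs summed to 471 to 573 in all libraries, and miR-204-5p and miR-211-5p of the eye and pigment epithelium to 98.6 and 92.1 in mutants and 145 and 165 in controls. Of 4 muscle miRNAs, 1 had a count, a single read of miR-133a-5p in Rx-Dicer library 1. The 8 neural miRNAs summed to 269856 and 283743 in mutants and 374188 and 563483 in controls, most of it miR-9-5p. How the amounts of these tissues in a piece bear on the miR-200 and miR-205 levels was not tested.

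**Figure D4:**
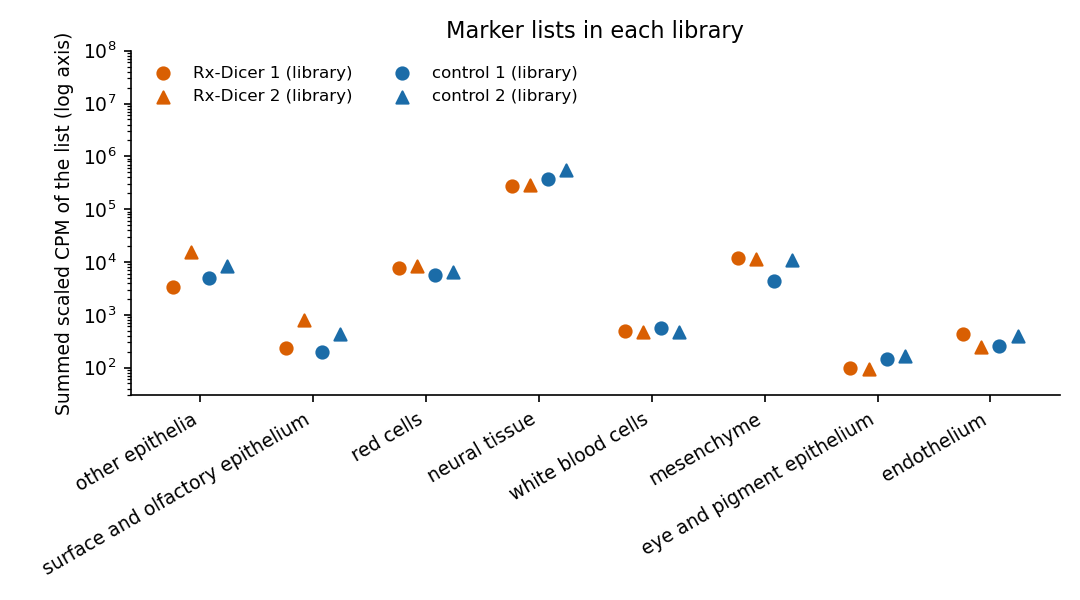
Summed scaled CPM (log axis) of each marker list in the 4 libraries, with circles for library 1 and triangles for library 2 of a genotype. Rx-Dicer library 2 is the highest for both epithelial lists (808 and 15575, the latter mostly miR-182-5p and miR-183-5p) and for red cells (8504), and the mutant libraries lie close to each other for mesenchyme and neural tissue.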

How the data were processed

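Small RNA of 4 libraries was sequenced as 75-base single-end reads and, according to the methods, quantified with miRDeep2 against mm10 and miRBase, with its settings for mismatches not given in the sources used here. The authors deposited whole-number read counts for every combination of a mature miRNA with a precursor, not normalized, and the submitters' notes also name FastQC 2.6.14. From these, the precursor row with the highest total was kept for each mature miRNA. edgeR 4.0.16 (R 4.3.3) was run on the miRNAs that reached 10 counts in 2 or more libraries, with TMM factors of 1.17, 1.14, 0.926 and 0.814 for Rx-Dicer libraries 1 and 2 and control libraries 1 and 2, genotype as the only factor and Benjamini-Hochberg adjustment at 0.05. The labels do not say whether the libraries of a genotype came from separate litters or embryos, so p-values measure the spread between these libraries, which may be partly technical. Intervals of single-library shares and ratios are exact binomial (scipy 1.17.1), and they and the limit of 3 counts cover counting error only, as PCR copies are not marked. The edgeR fit was tested on simulated counts. These had less spread between libraries than the data (common dispersion 0.077), so the test does not cover the spread of miR-200a-5p and miR-200b-5p. The members, marker lists and alternatives were chosen with earlier results of these data known, and the miRNAs named besides the members are up to 3 of each marker list, by mean CPM, and the 5 closest to the summed members in pattern, with the exceptions said in the text to be chosen after the values were seen. Alternatives were other scalings, count minimums, the sum over precursor rows, DESeq2 1.42.0, the replicate number as a factor, a total without miR-9-5p and each library left out.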

Additional observations from a re-analysis of the deposited data

How the results depend on the processing

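Of 34 alternative fold changes of miR-200a-5p, miR-200b-5p and miR-205-5p, 29 kept their direction and their side of the threshold and 5 reversed. Among the 29 is miR-200b-5p in DESeq2's Wald test, which had no adjusted p and is counted as not passing. Under a replicate block beside genotype, miR-200a-5p was at −0.058 and miR-200b-5p at −0.25, and miR-205-5p at 0.80 (adjusted p = 0.501 in edgeR). Same-numbered libraries share only a number in the labels, so no pairing was assumed. The correlation between their deviations from the genotype mean was 0.085 over 274 miRNAs, a value that does not speak to single miRNAs. With each library left out, fold changes on the log2 scale ranged from −2.59 to 1.58 for miR-200a-5p, from −3.35 to 1.66 for miR-200b-5p and from −0.44 to 1.37 for the summed members (0.70 with all 4 libraries, standard error 0.57), and 0 to 2 members were called lower. Both calls came without Rx-Dicer library 2. Over all tested miRNAs, the median change (log2) moved from 0.04 to 0.44 with total counts alone, 0.14 with upper-quartile scaling and −0.14 with no count minimum, and miR-205-5p was at 1.27 with total counts alone (adjusted p = 0.188 in edgeR). Among all tested miRNAs, 7 were lower with the settings used, 4 with DESeq2's size factors, 3 with upper-quartile scaling, 0 with total counts only or the replicate block, 14 with no count minimum, 11 with DESeq2's Wald test and 0 to 6 with a library left out (1 without Rx-Dicer library 1, 0 without either control library). These counts are out of 274 tested miRNAs, except the 14 with no count minimum, which are out of 634. The 14 are therefore not to be read as a rise over the 7 of 274. In DESeq2's Wald test, miRNAs without an adjusted p, such as miR-200b-5p, could not be called, and their number is not given here. At a minimum of 100 counts in 2 libraries 10 of 155 were lower, and with the sum over precursor rows 8 of 282. The causes of the differences between settings were not tested. At a minimum of 100 counts, miR-200a-5p and miR-200b-5p were not tested. Depth limits all statements on miR-141-5p, miR-200c-5p, miR-429-5p and miR-203-5p.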

Other observations

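Among the tested miRNAs with the largest differences between the Rx-Dicer libraries, several ran opposite to miR-200a-5p and miR-200b-5p. miR-449a-5p was 4.14 times as high in Rx-Dicer library 1 as in Rx-Dicer library 2, miR-216b-5p 4.01 times, miR-449c-5p 3.61 times and miR-135a-5p 3.42 times. Reads of miR-135a-5p, listed among the neural miRNAs, numbered 1212 in Rx-Dicer library 1 and 273 in Rx-Dicer library 2, against 946 and 902 in the controls. In scaled CPM it had 1593 and 466 in the mutants and 786 and 978 in the controls. These miRNAs were picked for this difference after their values were seen.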
